A study of Homo sapiens with 6 samples.

Results

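The genes described here are 9 of the 33539 genes in the deposited table, taken by symbol: the thyroid transcription factors NKX2-1, PAX8, FOXE1, HHEX and GLIS3, and the thyroid function genes TSHR, TG, DIO2 and SLC5A5. They were measured in 8505C, a human cell line from an anaplastic (undifferentiated) thyroid carcinoma, by sequencing of poly(A) RNA. The study compared 3 libraries from cells that received a control siRNA (NC) with 3 from cells that received an siRNA against POLR1F (siPOLR1F), all harvested at 24 h, to ask which genes depend on this subunit of RNA polymerase I. All libraries came from this 1 line, carry the same batch label and hold 60576788 to 63038378 counts. Whether the libraries stem from separate cultures is not said in the labels, so p-values measure the spread between libraries, which may be technical. Levels are given as FPKM (fragments scaled by gene length and library size), as mean ± SD with n = 3 libraries per group.

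In the thyroid, NKX2-1, PAX8, FOXE1 and HHEX are expressed together from the earliest gland primordium onwards, and the follicular cell is recognised by their joint presence. With GLIS3 and the thyrotropin receptor, they maintain the genes that take up iodide and build thyroid hormone on thyroglobulin. Anaplastic thyroid carcinoma is the form in which most of this programme is lost, together with iodide uptake.

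POLR1F itself, the targeted gene, was lower in each siPOLR1F library. The NC libraries held 2446, 2246 and 2095 of its counts and the siPOLR1F libraries 575, 395 and 413, or 8.28 ± 0.592 against 1.67 ± 0.368 FPKM. The log2 fold change was -2.30 (SE 0.15, edgeR adjusted p = 9.76e-05). Of 13564 genes tested, 942 (6.94%) were lower and 1391 (10.3%) higher in siPOLR1F cells, 17.2% in either direction. The median log2 fold change was -0.01.

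NKX2-1 was the thyroid gene that fell. It was also by far the most abundant of the 9, at 45.2 ± 3.02 FPKM in NC cells, above 94.4% of the tested genes. Of the 4 thyroid genes abundant enough for the test (a mean of at least 0.5 FPKM over the 6 libraries), NKX2-1 passed as lower, none was higher, and HHEX, GLIS3 and PAX8 did not pass. The other 5 (FOXE1, DIO2, TG, TSHR and SLC5A5) lay under this level, and several were at or near 0. A pattern of 1 lower gene in 4 stands beside the 6.94% of all tested genes that were lower and is too short a list to be read against it.

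**Figure D1:**
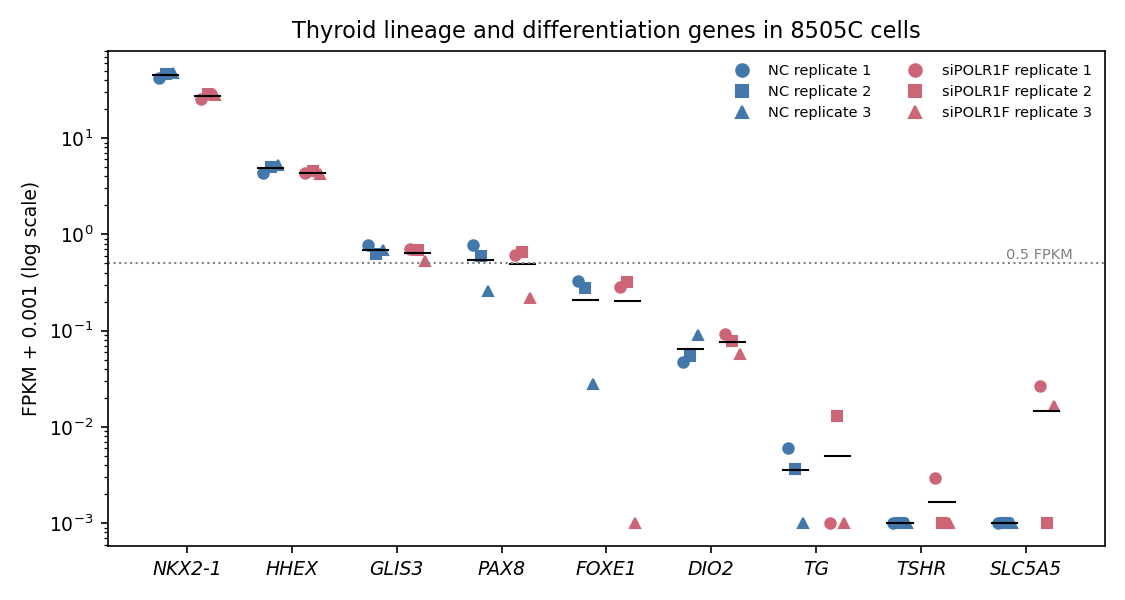
Level of each gene in each library, as FPKM + 0.001 on a log axis, with NC libraries in blue, siPOLR1F libraries in red, a symbol per replicate number and a line at the group mean. The dotted line marks 0.5 FPKM. NKX2-1 is highest and is separated between the groups, PAX8 and FOXE1 are lowest in replicate 3 of both groups, and TSHR and SLC5A5 are at 0 in all 3 NC libraries.

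In NC cells the mean levels ran NKX2-1, HHEX, GLIS3, PAX8, FOXE1, DIO2, TG, with TSHR and SLC5A5 at 0. The NC libraries of NKX2-1 did not overlap those of HHEX, nor did those of HHEX overlap GLIS3, or those of DIO2 overlap TG. The neighbours GLIS3 and PAX8, PAX8 and FOXE1, FOXE1 and DIO2, and TG and TSHR overlapped and are not ordered by these data. By mean level, the 5 transcription factors came before the 4 function genes, with FOXE1 and DIO2 overlapping at the boundary.

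NKX2-1 (ENSG00000136352) encodes TTF-1, the homeodomain factor that binds the thyroglobulin and thyroperoxidase promoters and that also marks lung epithelium. It lies on the minus strand at chr14:36516392-36520949 (GRCh38). RefSeq lists 2 start sites for it, and the 300 bases around each (250 before and 50 after the start, minus strand, RefSeq on GRCh38.p14) are shown because the genes beside NKX2-1 are described further on. Capitals mark CAAGTG, the core of NKX2-type homeodomain sites, in the first window (chr14:36519507-36519806) and GGGCGG, the GC box, in the second (chr14:36520183-36520482), each searched on both strands.
NKX2-1 downstream start: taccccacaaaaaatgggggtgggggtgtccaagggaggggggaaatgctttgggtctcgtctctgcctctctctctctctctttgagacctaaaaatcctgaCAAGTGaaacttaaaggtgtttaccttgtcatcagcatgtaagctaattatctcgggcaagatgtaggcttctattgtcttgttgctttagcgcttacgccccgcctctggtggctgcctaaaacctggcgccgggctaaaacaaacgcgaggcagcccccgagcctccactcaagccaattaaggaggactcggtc
NKX2-1 upstream start: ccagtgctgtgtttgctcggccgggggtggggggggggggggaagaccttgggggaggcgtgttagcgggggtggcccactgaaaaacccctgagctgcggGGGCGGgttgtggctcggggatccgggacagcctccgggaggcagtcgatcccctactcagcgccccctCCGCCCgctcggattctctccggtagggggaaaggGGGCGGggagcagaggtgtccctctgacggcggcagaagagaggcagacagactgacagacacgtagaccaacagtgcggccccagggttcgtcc
The first window holds CAAGTG once, 147 bases before the start, and has a GC content of 52.0%. The second has 3 GC boxes and a GC content of 69.0%. CAAGTG occurs at least once in 11.5% and GGGCGG in 44.9% of the 34943 promoter windows of this length, so having a match does not set either window apart. The share of windows with 3 GC boxes was not counted. A match is a run of letters, not evidence of binding. RefSeq gives a start of SFTA3, a gene beside NKX2-1, the same first window.

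The NC libraries held 9309, 9997 and 10377 NKX2-1 counts, and the siPOLR1F libraries 5642, 6412 and 6168. In FPKM these are 41.8, 46.8 and 47.2 against 25.7, 28.8 and 28.1. Every siPOLR1F library lay below every NC library, a separation that 37.9% of tested genes showed in one direction or the other. The mean dropped from 45.2 ± 3.02 to 27.5 ± 1.62 FPKM, 39.1% lower, which is a log2 difference of -0.71 (SE 0.07, 95% interval -0.86 to -0.56, edgeR adjusted p = 4.35e-04). An exact two-sided permutation test of log2(FPKM + 1) gave p = 0.1, the smallest that 3 libraries against 3 allow. Among the 942 lower genes, 118 fell further than NKX2-1 on the log2 scale. Poly(A) RNA from a whole culture cannot tell fewer NKX2-1-expressing cells from less NKX2-1 RNA per cell.

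HHEX (ENSG00000152804, chr10:92689955-92695647, plus strand), a homeobox repressor expressed in thyroid, liver and blood vessel precursors, was measured at 4.34, 5.03 and 5.27 FPKM in NC and 4.33, 4.52 and 4.28 FPKM in siPOLR1F cells. The groups overlapped through the lowest NC library. Its log2 fold change was -0.15 (SE 0.10, 95% interval -0.39 to 0.09, edgeR adjusted p = 0.359). That interval does not reach the NKX2-1 estimate of -0.71, although the difference between the 2 genes was not itself tested. At the NC mean of 4.88 ± 0.485 FPKM, HHEX was above 51.2% of tested genes.

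GLIS3 (ENSG00000107249, chr9:3824127-4348392, minus strand), a zinc finger factor that the thyroid needs to respond to thyrotropin, was low. NC libraries gave 0.779, 0.620 and 0.681 FPKM and siPOLR1F libraries 0.711, 0.679 and 0.533 FPKM. The groups overlapped. The log2 fold change was -0.11 (SE 0.15, 95% interval -0.44 to 0.23, edgeR adjusted p = 0.655), and its sign turned (0.01) without siPOLR1F replicate 3.

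PAX8 and FOXE1 shared another pattern: in both groups the library numbered 3 was far below the other libraries. PAX8 (ENSG00000125618, chr2:113215997-113278921, minus strand), the paired-box factor that acts with NKX2-1 on the thyroglobulin and thyroperoxidase promoters, had counts of 407, 300 and 134 in NC and 314, 341 and 113 in siPOLR1F cells. The exact 95% Poisson interval of the 134 counts in NC replicate 3 (112 to 159) lay below that of the 300 counts in NC replicate 2 (267 to 336), and the interval for siPOLR1F replicate 3 (93.1 to 136) lay below that for siPOLR1F replicate 1 (280 to 351). These intervals cover counting error only. Replicate 3 therefore differed from the other libraries of its own group by more than counting error, in both groups.

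Between groups PAX8 was 0.543 ± 0.264 in NC and 0.491 ± 0.237 FPKM in siPOLR1F cells, a coefficient of variation of 48.6% and 48.4%. The log2 fold change was -0.14 (SE 0.47, edgeR adjusted p = 0.872). Its 95% interval, -1.20 to 0.92, includes no change, the size of the NKX2-1 decrease and a rise of similar size. The main fit, which gave this interval, does not account for the low replicate 3 in both groups. With the replicate number as a block, PAX8 gave -0.15 with a smaller SE of 0.18 (edgeR adjusted p = 0.591). The labels state no such pairing. The sign turned without NC replicate 1 (0.21) or without siPOLR1F replicate 3 (0.22), and no alternative gave a call.

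FOXE1 (ENSG00000178919, chr9:97853226-97856717, plus strand), a forkhead factor needed for the thyroid primordium to migrate, had counts of 80, 66 and 7 in NC and 69, 79 and 0 in siPOLR1F cells. In FPKM these are 0.324, 0.276 and 0.0268 against 0.283, 0.322 and 0. The first 2 libraries of each group were alike across the groups, and replicate 3 of both groups was near or at 0. A count of 0 allows up to 3 counts as a one-sided 95% limit, or 0.0476 to 0.0495 CPM at the depths of these libraries, and the two-sided Poisson interval reaches 3.69 counts. FOXE1 was under the level for the test, and with looser filters its log2 fold change was -0.03 to -0.04 (edgeR adjusted p = 0.992 and 0.997).

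**Figure D2:**
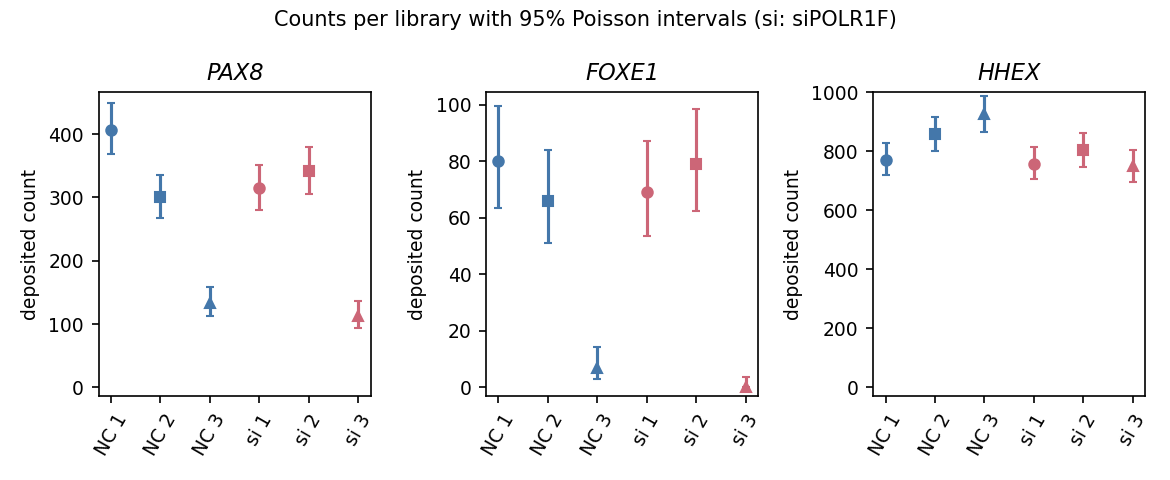
Deposited counts of PAX8, FOXE1 and HHEX in each library (NC in blue, siPOLR1F in red, labelled si) with exact 95% Poisson intervals, which cover counting error only. Replicate 3 is lowest for PAX8 and FOXE1 in both groups (134 and 113, 7 and 0), whereas HHEX is highest in NC replicate 3 (925) and lowest in siPOLR1F replicate 3 (750).

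The tested gene most like PAX8 over the 6 libraries was QPRT, an enzyme of NAD synthesis, with a Pearson r of log2 CPM of 0.995. QPRT was at 1.62, 1.04 and 0.393 FPKM in NC and 1.17, 1.31 and 0.369 FPKM in siPOLR1F cells. HMGB1P5 (r = 0.994), at 61.7, 61.6 and 58.0 FPKM in NC and 61.2, 62.0 and 57.5 FPKM in siPOLR1F cells, and the mitochondrial histidine tRNA MT-TH (r = 0.992) followed. MT-TH stood at 195, 176 and 95.2 FPKM in NC and 168, 165 and 91.8 FPKM in siPOLR1F cells. All 3 were lowest in replicate 3 of both groups, which follows from their choice by likeness to PAX8. The drop was large in QPRT and MT-TH and small in HMGB1P5. The labels give no batch that separates replicate 3, and what sets it apart was not tested.

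The same measure named other genes for the other factors. For NKX2-1 they were MRS2, TIMP3 and ABCC1 (r = 0.997, 0.996 and 0.996), for HHEX they were PSMD10, PIK3CG and CDIPT (0.988, 0.987 and 0.985), and for GLIS3 they were CENPH, GOLGA6L10 and ENTPD4 (0.995, 0.992 and 0.987). Each r is over 6 libraries, was picked as the highest of 13564 genes and, for NKX2-1, follows the difference between the groups.

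The promoter windows of PAX8 (chr2:113278872-113279171, minus strand) and FOXE1 (chr9:97852976-97853275, plus strand), again RefSeq on GRCh38.p14 and 300 bases long, are set side by side because these genes varied together. Capitals mark GGGCGG on either strand.
PAX8: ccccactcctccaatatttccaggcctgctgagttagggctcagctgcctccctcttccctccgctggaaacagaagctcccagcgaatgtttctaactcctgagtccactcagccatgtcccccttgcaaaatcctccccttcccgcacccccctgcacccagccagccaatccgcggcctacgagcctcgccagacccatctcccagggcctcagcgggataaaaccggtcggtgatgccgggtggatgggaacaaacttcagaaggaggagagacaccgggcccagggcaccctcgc
FOXE1: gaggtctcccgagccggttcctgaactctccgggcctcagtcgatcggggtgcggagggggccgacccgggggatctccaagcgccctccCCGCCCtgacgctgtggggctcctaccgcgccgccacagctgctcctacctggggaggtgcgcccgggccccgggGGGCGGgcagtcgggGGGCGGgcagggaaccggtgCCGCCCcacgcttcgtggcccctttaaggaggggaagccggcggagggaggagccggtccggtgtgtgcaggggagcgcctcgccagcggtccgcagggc
The FOXE1 window has 4 GC boxes and a GC content of 76.0%. The PAX8 window has a GC content of 62.0% and no match to the GC box, the NKX2-type core, the TATA box (TATAAA) or the cAMP response element, so the 2 windows shared none of the 4 motifs searched. The last of these was searched as TGACGTCA on both strands. The HHEX window also holds 4 GC boxes.

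The genes of thyroid function were close to undetected in both groups. TSHR (ENSG00000165409, chr14:80954989-81146306, plus strand), the thyrotropin receptor, had 0 counts in 5 libraries and 2 counts in siPOLR1F replicate 1. Its entry in the deposited table lists a single transcript, of the nonsense-mediated decay class, so reads of the coding transcript may not be in this value. TG (ENSG00000042832, chr8:132866958-133134899, plus strand), which encodes thyroglobulin, the protein on which thyroid hormone is made, had 5, 2 and 0 counts in NC and 0, 10 and 0 in siPOLR1F cells. SLC5A5 (ENSG00000105641, chr19:17871945-17895174, plus strand), the sodium/iodide symporter NIS, had 0 counts in all NC libraries and 7, 0 and 4 in siPOLR1F cells. A fall cannot be seen from counts at or near 0, and no rise was called. With no filter on FPKM, edgeR gave adjusted p = 0.940 for TG and 0.289 for SLC5A5.

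DIO2 (ENSG00000211448, chr14:80197526-80315838, minus strand), the deiodinase that turns thyroxine into the active hormone, was detected in all 6 libraries. NC libraries gave 25, 28 and 47 counts and siPOLR1F libraries 47, 40 and 29, or 0.0633 ± 0.0228 against 0.0745 ± 0.0172 FPKM. The groups overlapped fully, and with no filter on FPKM the log2 fold change was 0.24 (edgeR adjusted p = 0.825). The RefSeq window of the upstream DIO2 start holds that cAMP response element, 96 bases before the start, which 1.84% of windows have on either strand, and a TATA box 31 bases before it, which 11.6% have.

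NKX2-1 did not fall alone in its neighbourhood. SFTA3 (ENSG00000229415, chr14:36473288-36513829, minus strand), a surfactant-associated gene read in the same direction, which in the deposited table starts 2563 bases downstream of NKX2-1 without overlap, was at 13.0, 11.7 and 12.2 FPKM in NC and 6.76, 7.49 and 7.12 FPKM in siPOLR1F cells. The groups did not overlap. The mean dropped from 12.3 ± 0.688 to 7.12 ± 0.363 FPKM, 42.1% lower, which is a log2 difference of -0.78 (SE 0.07, edgeR adjusted p = 4.82e-04). The ratio of NKX2-1 to SFTA3 FPKM was 3.21, 4.01 and 3.86 in NC and 3.80, 3.85 and 3.95 in siPOLR1F libraries. These ratios overlapped between the groups.

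A pair of transcripts that overlap NKX2-1 gave lower values without passing the test. A second SFTA3 entry (ENSG00000257520, chr14:36473207-36521149, minus strand) was at 1.28, 0.685 and 1.14 FPKM in NC and 0.757, 0.130 and 0.398 FPKM in siPOLR1F cells, so the groups overlapped (log2 fold change -1.25, SE 0.52, edgeR adjusted p = 0.132). It passed with DESeq2 (adjusted p = 0.0462) and without siPOLR1F replicate 1 (edgeR adjusted p = 0.0488). NKX2-1-AS1 (ENSG00000253563, chr14:36519278-36523016, plus strand), the antisense RNA, was at 1.12, 1.12 and 0.992 FPKM in NC and 0.719, 0.383 and 0.798 FPKM in siPOLR1F cells. Its groups did not overlap, but the log2 fold change of -0.75 (SE 0.28) had an edgeR adjusted p = 0.101. The strand setting of the counting is not given in the sources used here, so reads of NKX2-1 and of these transcripts may be divided between them.

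**Figure D3:**
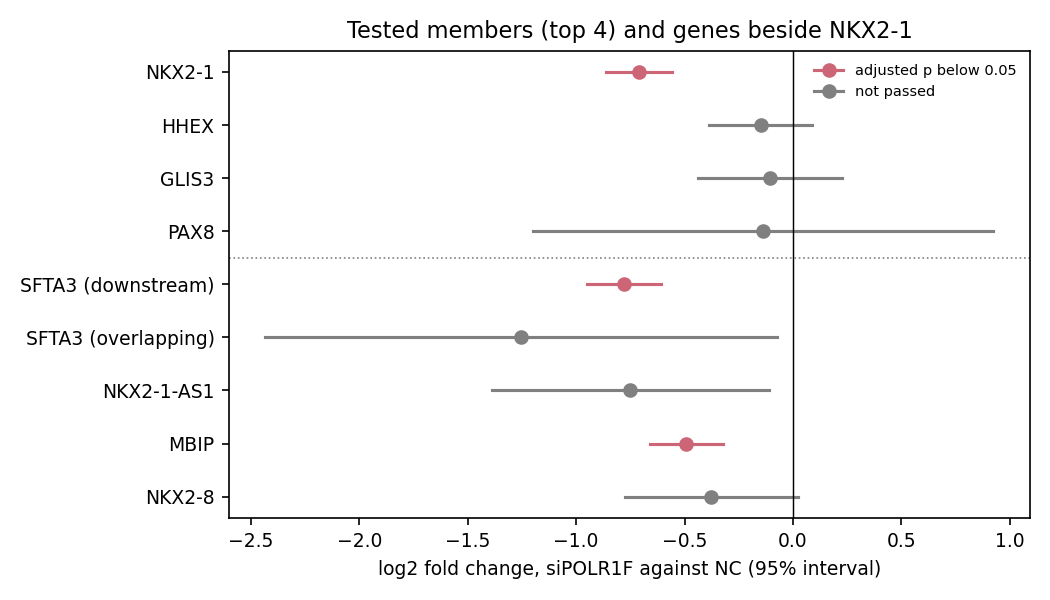
Log2 fold change (siPOLR1F against NC) with its 95% interval for the 4 tested thyroid factors, above the dotted line, and for genes beside NKX2-1, with genes at an adjusted p below 0.05 in red. NKX2-1 (-0.71), SFTA3 downstream of it (-0.78) and MBIP (-0.49) lie below 0, while the PAX8 interval runs from -1.20 to 0.92.

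Further along chromosome 14, MBIP (chr14:36298564-36320637), the nearest tested gene on the lower-coordinate side and a subunit of the ATAC acetyltransferase complex, was at 16.2, 14.9 and 14.5 FPKM in NC and 11.3, 10.3 and 10.7 FPKM in siPOLR1F cells. The groups did not overlap, and the log2 fold change was -0.49 (SE 0.07, edgeR adjusted p = 0.00376). NKX2-8, a related homeobox gene on the other side, was at 2.69 ± 0.461 and 2.07 ± 0.231 FPKM (log2 fold change -0.38, edgeR adjusted p = 0.174).

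Within 1 Mb on each side of the NKX2-1 start, a window chosen after these values were seen, the table has 27 genes. Of the 11 tested, 5 were lower (NKX2-1, SFTA3, MBIP, PTCSC3 and BRMS1L) and 0 higher by edgeR, 10 had a log2 fold change below 0, and the median was -0.49 beside -0.01 over all tested genes. The share of lower genes was 45.5% here, 50% of 8 genes within 500 kb and 26.9% of 26 genes within 2 Mb, beside 6.94% overall. These shares include NKX2-1, on which the windows were centred because it was lower. Without it they were 40% of 10 genes, 42.9% of 7 and 24% of 25, and no test was made of them. The remaining genes still include both SFTA3 entries and NKX2-1-AS1, which overlap each other or NKX2-1, so they are not all separate from it. In the widest window 7 were lower and 2 higher, with a median of -0.11. The 5 calls were not equally firm: NKX2-1, the downstream SFTA3 entry and MBIP were called whichever library was left out. The count of lower genes was 3 without any 1 of NC replicates 1, 2 and 3 and siPOLR1F replicates 2 and 3. It was 4 without siPOLR1F replicate 1, where the overlapping SFTA3 entry, not among the 5, also passed (edgeR adjusted p = 0.0488).

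PTCSC3, a noncoding RNA gene near a thyroid cancer risk locus, was at 2.99, 2.65 and 2.82 FPKM in NC and 1.89, 1.83 and 1.70 FPKM in siPOLR1F cells, with no overlap. Its edgeR adjusted p of 0.0498 (log2 fold change -0.63, SE 0.19) ranged from 0.00602 to 0.140 over the alternatives. BRMS1L fell by 0.29 on the log2 scale (edgeR adjusted p = 0.0350, range 0.0160 to 0.110). Both calls were lost whichever library was left out. PAX9 (-0.11), RALGAPA1 (-0.11) and SLC25A21-AS1 (0.06) did not pass.

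**Figure D4:**
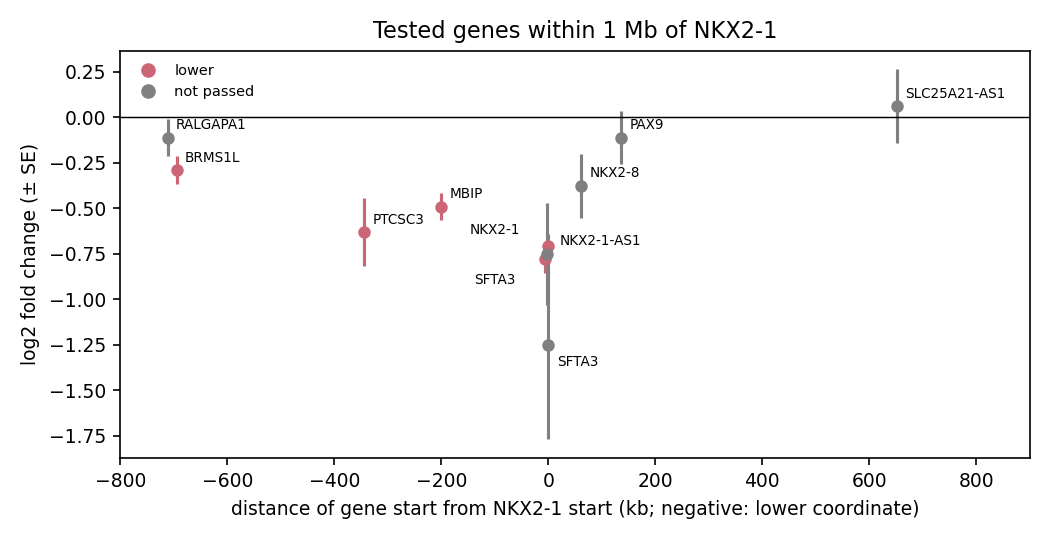
Log2 fold change ± SE (siPOLR1F against NC) of the 11 tested genes within 1 Mb of the NKX2-1 start, by the distance of their own start in kb along chromosome 14, with lower genes in red and those that did not pass in grey. NKX2-1 and the downstream SFTA3 entry lie close together at -0.71 and -0.78, and SLC25A21-AS1 at 0.06 is the single point above 0.

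Around the other 8 genes no neighbour within 50 kb passed the test. KIF11, a mitotic kinesin beside HHEX, came nearest at -0.41 on the log2 scale (edgeR adjusted p = 0.0520, from 0.00352 to 0.159 over the alternatives, 5 of which gave a call). CEP128, which overlaps TSHR on the opposite strand, gave 0.26 (adjusted p = 0.303), and GTF2A1, also beside TSHR, 0.01 (0.933), both by edgeR. PSD4 beside PAX8 gave -0.18 (edgeR adjusted p = 0.392), TRMO beside FOXE1 -0.03 (0.868) and PHF20L1 beside TG -0.23 (0.145). CCDC124 beside SLC5A5 gave 0.14 (edgeR adjusted p = 0.0880). Among the other neighbours, LINC02966, PTCSC2, EIF2S2P3, GLIS3-AS2, DIO2-AS1 and ENSG00000223697 were under the level for the test. So was PAX8-AS1, which overlaps PAX8 on the opposite strand.

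The wider programme was described by lists drawn from textbook knowledge. Of 15 genes of iodide handling and hormone synthesis, 13 were in the table and none reached the level for the test. Their summed level was 0.248 to 0.334 FPKM in NC and 0.214 to 0.329 FPKM in siPOLR1F cells. DUOX1, an oxidase that supplies hydrogen peroxide for iodination, was the most abundant in NC cells at 0.0861 ± 0.0285 FPKM, and 0.0548 ± 0.0126 FPKM in siPOLR1F cells. DIO1, the type 1 deiodinase, was at 0.0450 ± 0.0285 and 0.0825 ± 0.0433 FPKM. The machinery of hormone synthesis was thus at trace levels in both groups, with NKX2-1 itself abundant.

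Genes of the signalling pathway below the thyrotropin receptor were expressed. Of 25 genes of G proteins, adenylyl cyclases, protein kinase A, CREB factors and phosphodiesterases, 23 were tested: 6 were higher, 2 lower and 15 did not pass, with a median log2 fold change of 0.13. Over all tested genes, the shares were 10.3% higher and 6.94% lower, and the 2 lower genes of 23 are near the latter. PDE8A, a phosphodiesterase that degrades cAMP, rose from 7.65 ± 0.496 to 11.6 ± 0.130 FPKM (log2 fold change 0.61, edgeR adjusted p = 6.80e-04). PRKAR2A, a regulatory subunit of protein kinase A, rose from 10.6 ± 1.08 to 15.3 ± 0.986 FPKM (0.55, adjusted p = 0.00424 by edgeR). GNA11, a Gq-class alpha subunit, rose by 0.48 and the CREB-related factor ATF1 by 0.52 on the log2 scale (edgeR adjusted p = 0.00150 and 0.00787). All 4 passed in all 15 alternatives.

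The other 2 higher genes of this list were CREM and ADCY3, and the 2 lower ones were PRKAR2B and PDE4B, so subunits of protein kinase A and phosphodiesterases stood on both sides. None of the lower calls was left without NC replicate 3, siPOLR1F replicate 1 or siPOLR1F replicate 3. GNAS, the Gs alpha subunit that couples the thyrotropin receptor to cAMP, was at 42.8 ± 2.08 and 42.5 ± 1.06 FPKM (edgeR adjusted p = 0.983).

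Of 18 genes for thyroid hormone transport, receptors and coregulators, 17 were in the table and 13 tested, of which 4 were higher, none lower and 9 did not pass, with a median of 0.17, beside the same 10.3% higher and 6.94% lower over all tested genes. RXRA, the retinoid X receptor that pairs with thyroid hormone receptors, rose from 5.26 ± 0.350 to 6.69 ± 0.254 FPKM (log2 fold change 0.35, edgeR adjusted p = 0.00846), and passed in all 15 alternatives. RXRB (0.28), a second retinoid X receptor, and MED1 (0.25), a Mediator subunit, also rose, with edgeR adjusted p = 0.0343 and 0.0340. Without NC replicate 1 or any 1 siPOLR1F library, 1 or 2 genes of this list were called higher. The receptor THRA was at 5.37 ± 0.264 and 5.94 ± 0.184 FPKM (edgeR adjusted p = 0.153), and THRB at 0.148 ± 0.0186 and 0.151 ± 0.0506 FPKM, under the level for the test.

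Among 13 partners of the thyroid factors, 11 were tested, with a median of 0.03, and 1 was higher and 1 lower, near the shares over all tested genes. The acetyltransferase CREBBP rose by 0.40 and SMAD3, the TGF-beta effector, fell by 0.24 on the log2 scale (edgeR adjusted p = 0.0392 and 0.0482), with ranges of 0.00168 to 0.130 and 0.0109 to 0.153 over the alternatives. WWTR1 (TAZ), which binds both NKX2-1 and PAX8, was at 13.8 ± 0.634 and 12.1 ± 0.377 FPKM (edgeR adjusted p = 0.0703). Of 23 relatives from the same gene families, 16 were in the table and 5 tested, with a median of -0.11. GLIS2, the relative of GLIS3, fell from 6.27 ± 0.841 to 4.19 ± 0.246 FPKM (log2 fold change -0.57, edgeR adjusted p = 0.00787) and passed in all 15 alternatives. SLC5A6, the multivitamin transporter related to SLC5A5, rose from 5.59 ± 1.21 to 8.18 ± 0.534 FPKM (0.56, edgeR adjusted p = 0.0310, range 3.66e-04 to 0.104).

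**Figure D5:**
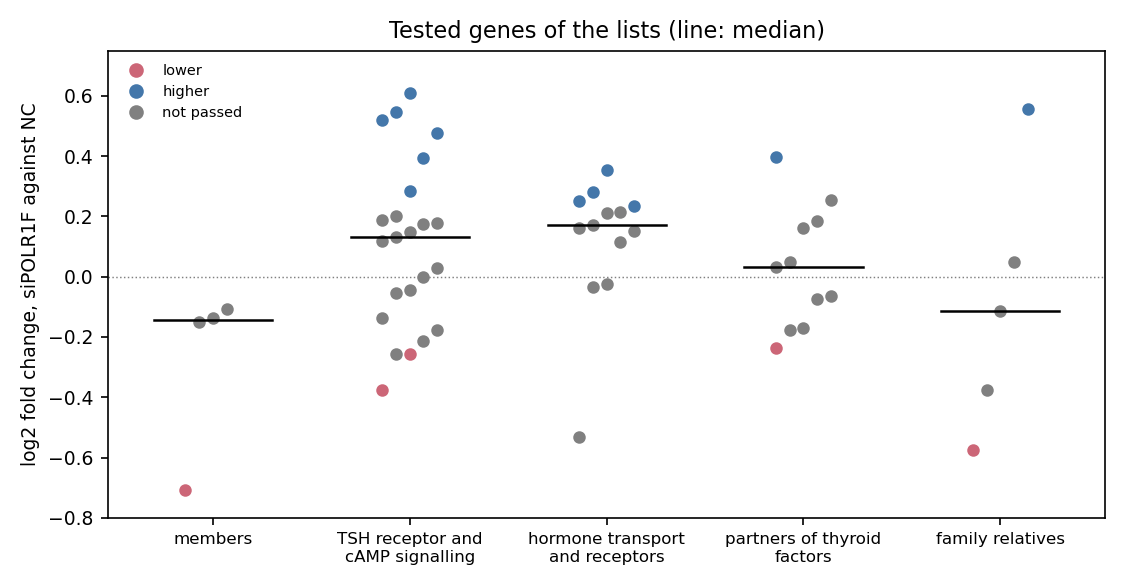
Log2 fold change (siPOLR1F against NC) of each tested gene in the 9 thyroid genes (members) and 4 lists, with higher genes in blue, lower genes in red, those that did not pass in grey and a line at the median. The medians are -0.14, 0.13, 0.17, 0.03 and -0.11, beside -0.01 over all tested genes.

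Marker lists were read for the cells that express these factors. Of 9 thyroid follicular markers, 8 were in the table, 6 of which the list of iodide handling and hormone synthesis also holds. TFF3 was the 1 marker tested, at 0.193, 0.691 and 0.827 FPKM in NC and 0.212, 0.887 and 0.494 FPKM in siPOLR1F cells (edgeR adjusted p = 0.944). Their summed level was 0.313 to 0.964 FPKM in NC and 0.352 to 1.13 FPKM in siPOLR1F cells, with CDH16 and IYD at 0 in each NC library. Of what defines a follicular cell, NKX2-1 and HHEX were thus present. PAX8, FOXE1 and the marker TFF3 were low, and the other differentiation markers were at or near 0.

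Of 14 lung epithelial markers, 7 were in the table and 2 tested. SFTA3, described above, was lower, and LAMP3 was at 2.77 ± 0.425 and 2.56 ± 0.0355 FPKM (edgeR adjusted p = 0.612). Their summed level was 14.6 to 15.9 FPKM in NC and 9.69 to 10.5 FPKM in siPOLR1F cells. SFTA3 made up 78% to 81.9% of this sum in NC and 69.8% to 72% in siPOLR1F libraries, and LAMP3 most of the rest. The surfactant gene SFTPB was at 0 in 4 of the 6 libraries. For thyroid C cells, 4 of 6 markers were in the table and none was tested (summed 0.186 to 0.275 and 0.261 to 0.289 FPKM). CHGA, the most abundant of these, was at 0.164 ± 0.0580 and 0.155 ± 0.0264 FPKM, and SYP at 0.0639 ± 0.0143 and 0.0790 ± 0.0170 FPKM. Of 10 fibroblast, endothelial and immune markers, 9 were in the table and 3 tested, with summed levels of 15.3 to 19.2 and 13.4 to 21.7 FPKM. CD68, the most abundant of these, was at 9.33 ± 2.68 and 12.9 ± 2.89 FPKM (log2 fold change 0.48, edgeR adjusted p = 0.162). COL1A1 was at 0.995 ± 0.327 and 0.847 ± 0.167 FPKM (-0.23, edgeR adjusted p = 0.538).

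CDH5, the endothelial cadherin in that list, fell with NKX2-1. It was at 5.43, 5.64 and 5.88 FPKM in NC and 2.47, 3.48 and 2.22 FPKM in siPOLR1F cells (log2 fold change -1.04, edgeR adjusted p = 0.00308). The groups did not overlap. The other endothelial markers, VWF and PECAM1, were under the level for the test. They varied too widely within each group to show whether they followed CDH5. VWF was at 0.0155, 0.539 and 0.0384 FPKM in NC and 0.616, 0.706 and 0 FPKM in siPOLR1F cells, and PECAM1 at 0.292 ± 0.249 and 0.413 ± 0.240 FPKM. Whether a change of cell types has a part in the NKX2-1 result was not tested.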

How the data were processed

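Poly(A) RNA of 6 libraries was sequenced as paired reads, per the labels' protocols. The submitters' processing notes name fastp, HISAT2, StringTie and the GRCh38 build. Tool versions, annotation and strand setting: not given in the sources used here. The authors deposited 1 table with a whole-number count and an FPKM value (scaled for gene length and depth) per gene and library. Group and replicate number were read from the labels.

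Counts were tested as deposited with edgeR 4.0.16 (quasi-likelihood F test, TMM factors, two-sided; R 4.3.3) where the mean FPKM reached 0.5, in 13564 genes with 99.4% of the counts and a biological coefficient of variation of 0.137. Benjamini-Hochberg adjustment ran over all genes tested, with a threshold of 0.05. The procedure was tested on simulated data, where 7.0% of the calls were false. It recovered 86% and 88% of simulated log2 changes of -1 and 1. Of changes of -0.5 and 0.5 it recovered 58% and 60%, so smaller changes can be missed. The simulation changed 50 of 13564 genes at each size, a smaller share than the 17.2% called in the data. These rates may therefore not carry over to the real test. Single genes also had an exact permutation test. The depth puts a count of 3 at 0.0476 to 0.0495 CPM.

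Alternatives were DESeq2 1.42.0, limma 3.58.1 on log2(FPKM + 1) and log2(FPKM + 0.1), 2 other scalings, 3 other filters, a replicate block and each library left out. Sequences were taken from RefSeq (GRCh38.p14) by symbol for 8 of the 9 genes. Transcripts came from GENCODE 29.

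The genes, lists and tests were chosen with earlier results of these data known. The rule for named genes took the 9 genes, POLR1F, up to 4 called genes per list by adjusted p (or the 2 most abundant), the 2 most abundant neighbours within 50 kb of each gene, and the 3 genes with the most similar pattern. Genes named outside it were chosen after their values were seen, and some that it names are not reported here.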

Additional observations from a re-analysis of the deposited data

How the results depend on the processing

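NKX2-1 was called lower in all 15 alternatives, with log2 fold changes of -0.76 to -0.67 and adjusted p from 3.68e-19 to 0.00346, and no other of the 9 genes was called in any. SFTA3 downstream of NKX2-1 (-0.82 to -0.71), MBIP (-0.53 to -0.44) and CDH5 (-1.26 to -0.85) also passed in all 15. Other scalings moved the median of all genes by less than 0.1. Over all genes, leaving out 1 library gave 730 to 1326 higher and 423 to 841 lower genes, and testing without a filter on FPKM gave 504 lower ones. DESeq2 called 1781 higher and 1345 lower. Leaving out 1 library turned the sign of genes that were never called: PAX8 (-0.47 to 0.22, with 0.21 and 0.22 reversed), GLIS3 (-0.19 to 0.012), TRMO (-0.080 to 0.029), GTF2A1 (-0.030 to 0.038, and -0.0027 with library size alone), SLC25A21-AS1 (-0.10 to 0.21, with -0.10 and -0.03 reversed) and TFF3 (-0.65 to 0.28, with 0.08, 0.28 and 0.28 reversed). The causes were not tested. TG, TSHR and SLC5A5 had so few counts that a fall could not be seen at this depth, and no rise of them was called.

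The labels give the replicate numbers no shared source, so they were not used as pairs in the main test. Deviations from the group means of same-numbered libraries correlated at 0.297, -0.005 and 0.262 for numbers 1, 2 and 3. Libraries with different numbers correlated at -0.291 to 0.037. Deviations from a group mean cancel out for each gene, so these correlations depend on each other. The values for different numbers are thus no separate baseline, and those for numbers 1 and 3 are not independent results. Same-numbered libraries 1 and 3 correlated positively across the groups, and what they share was not tested. With the number as a replicate block, 1517 genes were higher and 1125 lower, NKX2-1 stayed the 1 called gene of the 9, PAX8 had an SE of 0.18 (adjusted p = 0.591), and the overlapping SFTA3 entry (adjusted p = 0.0181) and PHF20L1 (0.0447) passed.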

Other observations

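Short sequences were searched in the GENCODE 29 transcripts of the 9 genes. The heptamers CCGACTT and TCGGAGA had been picked in an earlier scan of these same fold changes and occur in the transcripts of 9.15% and 13% of 13372 tested genes. Neither was found in the transcripts of NKX2-1, PAX8, FOXE1, HHEX, GLIS3, DIO2, SFTA3 or NKX2-1-AS1. CCGACTT occurs in TG and TSHR and TCGGAGA in SLC5A5, the 3 genes at or near 0. These are matches of letters only.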
